A study of Rattus norvegicus with 18 samples.

Results

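Oxnad1, Kynu, Vom2r53, Acox2, Tmem163 and Myo16 are 6 genes of the 26583 gene names on the array, chosen on their measured signal because each was far higher in the adrenal glands of SHR and SHRSP rats than in those of WKY rats at both ages. Each was read by 1 probe and 1 spot, which makes 6 of 30367 probes. The glands came from untreated rats of 3 strains, which were WKY (normotensive), SHR (spontaneously hypertensive) and SHRSP (a stroke-prone line of SHR), at 3 and at 6 weeks of age. There were 3 biological replicates for each strain at each age, hence 18 one-colour Cy3 arrays, and the sources used here do not say which sex the rats were or whether glands were pooled.

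The 6 genes belong to different parts of cell biology. Kynu encodes kynureninase, an enzyme of the kynurenine pathway, which breaks down tryptophan and leads to NAD. Acox2 encodes a peroxisomal branched-chain acyl-CoA oxidase, which acts in shortening the side chains of bile acid precursors and is best known from liver. Oxnad1 encodes a protein with an oxidoreductase NAD-binding domain, Tmem163 a zinc-binding membrane transporter first described in synaptic vesicles, Myo16 an unconventional myosin with ankyrin repeats known from neurons, and Vom2r53 a member of the type 2 vomeronasal (pheromone) receptor family. The adrenal gland joins a steroid-producing cortex to a catecholamine-producing medulla. Since whole glands were used, fewer cells of a type and less RNA per cell cannot be told apart.

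The probes were read first, because a signal at background in 1 strain rests on the bases under the probe as well as on the transcript. The sequences are shown for their base composition, with G and C in capitals, whole (60 bases) for Kynu and Acox2 and as the first 30 bases of 60 for the others.
Oxnad1: attCataaaatttatGtttaCtGaatttat
Kynu: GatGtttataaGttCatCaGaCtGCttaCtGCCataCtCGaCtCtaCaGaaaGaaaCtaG
Vom2r53: GaGaCaGaCCGGtGatattGCttCaaatta
Acox2: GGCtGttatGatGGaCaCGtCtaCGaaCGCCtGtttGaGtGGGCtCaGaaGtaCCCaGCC
Tmem163: CatGGtGCCCaGaGtGaGaCaGaCGCGtCa
Myo16: aGGatGtGtGtttCGtttCtttGtaGttGt
On the rn4 assembly named in the file headers, the Oxnad1 probe lay at chr16:7574653-7574712 on the plus strand and the Myo16 probe at chr16:83812829-83812888 on the minus strand. The other probes lay at chr3:24195524-24195583 (Kynu, plus strand), chr7:11818043-11818102 (Vom2r53, plus strand), chr15:18673090-18673149 (Acox2, plus strand) and chr13:40144606-40144665 (Tmem163, minus strand). The sources used here do not say which exon or UTR lies under each probe.

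G and C made up 15% of the whole Oxnad1 probe, against a median of 45.0% over all probes, and 0.0263% of all probes had a share that low or lower. The shares were 38.3% for Kynu, 35.0% for Vom2r53, 55.0% for Acox2, 50% for Tmem163 and 36.7% for Myo16. The probes of Acox2 and Tmem163 lay above the median, with 98.3% and 78.4% of probes at or below them. The longest stretch that a member's probe shared exactly with any other probe on the array ran from 12 bases (Acox2) to 15 bases (Tmem163) of 60. No other probe carried the accession or the RefSeq symbol of any of the 6 genes, so no 2 probes of a gene could be compared. A sequence variant under a probe and a difference in transcript level cannot be told apart with 1 probe, and the strains' genome sequences were not used here.

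The 4 differences from WKY (SHR and SHRSP at 3 and 6 weeks) chose the 6 genes, so they are described below with standard errors and without a test. Over all probes tested, 18% were called in either direction (limma, Benjamini-Hochberg adjusted p under 0.05) in SHR against WKY at 3 weeks, 25.8% in SHRSP at 3 weeks, 29.0% in SHR at 6 weeks and 23.9% in SHRSP at 6 weeks, and 3.05% were called higher in all 4.

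**Figure D1:**
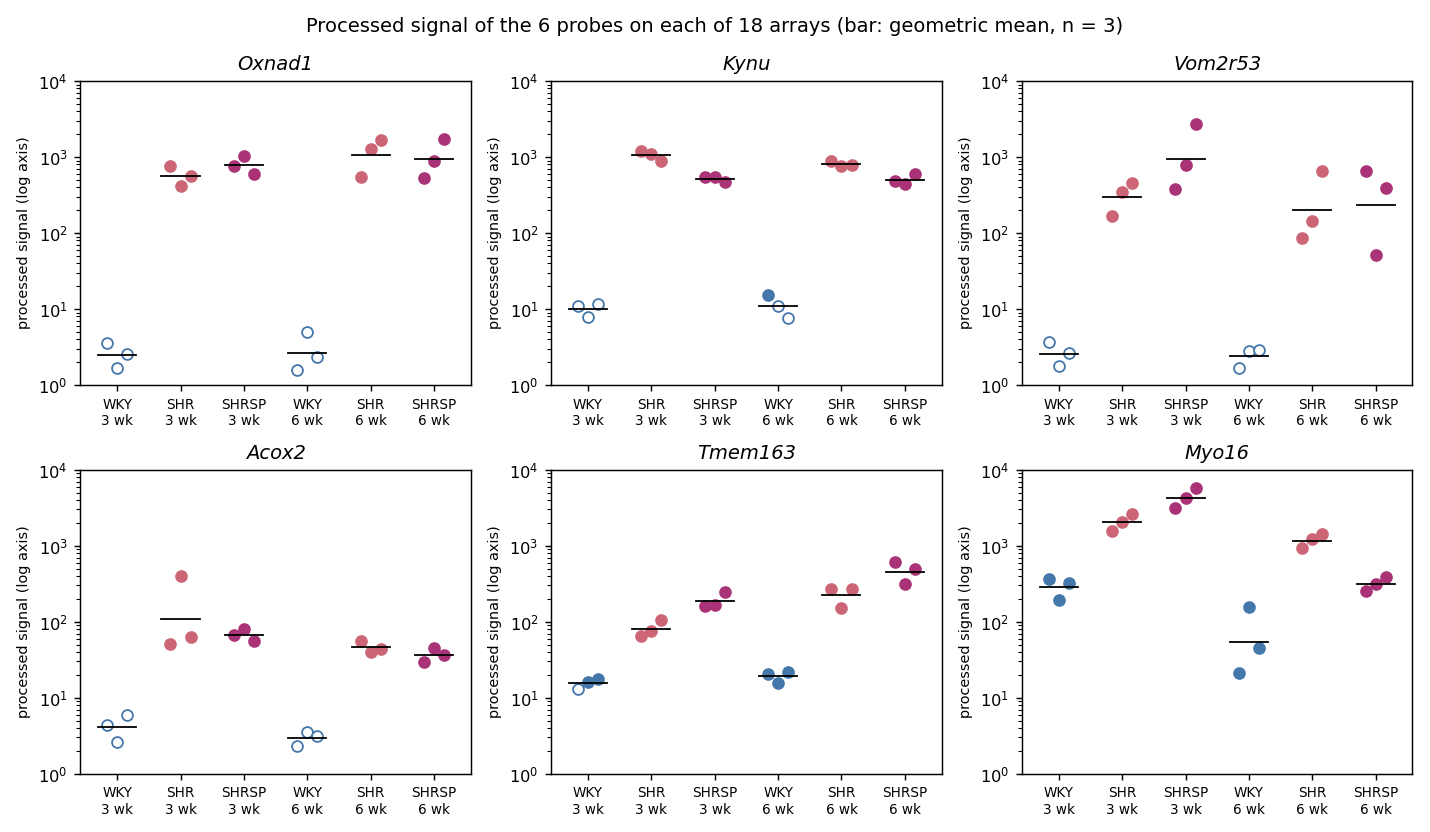
Processed signal (log axis) of the 6 probes on each array, by strain and age; filled points were well above background, open points were not, and bars are geometric means of 3 arrays. In all 6 panels each WKY array lies below each SHR and SHRSP array of the same age, the difference for which the genes were chosen. Oxnad1, Vom2r53 and Acox2 have only open points in WKY and none elsewhere.

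Oxnad1 went from background to a clear signal between strains. Its processed signal (the scanner software's corrected brightness, on a linear scale) was 3.55, 1.7 and 2.56 on the 3 WKY arrays at 3 weeks and 1.56, 5.01 and 2.37 at 6 weeks. None of these was well above background, the scanner software's own test of a spot. In SHR the signals were 760, 416 and 557 at 3 weeks and 545, 1295 and 1669 at 6 weeks. In SHRSP they were 761, 1030 and 599 at 3 weeks and 532, 896 and 1740 at 6 weeks. The 12 SHR and SHRSP arrays thus spanned 416 to 1740 and overlapped between all 4 of their groups. WKY allowed only a bound. The fold over WKY at 3 weeks was at least 49.3 in SHR and at least 68.9 in SHRSP, and at 6 weeks at least 106 and at least 86.1. Each bound sets the bright group's mean against, per WKY array, the dimmest signal that was still well above background or the probe's own, if higher. With another background correction (normexp with an offset of 50) the fitted log2 differences from WKY were 3.62, 4.08, 4.29 and 4.04. These lie below the bounds, which are 5.62, 6.11, 6.72 and 6.43 on that scale. The bounds thus hold for the processed signal only.

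SHRSP and SHR did not differ past the threshold in Oxnad1, by 0.48 ± 0.48 (log2 difference ± SE, n = 3 arrays per group, 95% interval -0.54 to 1.51, limma adjusted p = 0.61) at 3 weeks and -0.30 ± 0.48 (-1.32 to 0.73, adjusted p = 0.708) at 6 weeks. The age difference was 0.97 ± 0.48 in SHR (adjusted p = 0.14, and 0.0381 without SHR replicate 1 at 6 weeks) and 0.19 ± 0.48 in SHRSP (adjusted p = 0.814).

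The spread of Oxnad1 among SHR and SHRSP arrays went with the slide on which an array lay. Its signals were 760 and 761 on slide 1, 416 to 545 over 3 arrays of slide 2, 896 and 1030 on slide 3, 557 and 599 on slide 4, and 1295 to 1740 over 3 arrays of slide 5. Arrays of one slide lay within 1.34-fold of each other across strain and age, while the 3 arrays of one group differed by up to 3.27-fold (SHRSP at 6 weeks). In the fit with slide as a block, an alternative chosen after seeing the data, the slide terms of Oxnad1 had a limma adjusted p of 0.00151. The values were 0.0516 for Tmem163, 0.183 for Myo16, 0.275 for Vom2r53, 0.561 for Kynu and 0.674 for Acox2, and 21.8% of all probes were called. Of the 19 tested probes with 10% to under 20% of G and C, 12 (63.2%) were called for slide, against 21.2% of those with 30% to under 60%. Whether base composition sets the slide difference was not tested. Within slides that held both groups, the SHRSP minus SHR difference of Oxnad1 was 0.08 and 0.25 at 3 weeks and -0.17 and 0.02 at 6 weeks, and the age difference was 0.39 in SHR and -0.11 in SHRSP. On every slide that held WKY, its arrays were not well above background for Oxnad1, and all SHR and SHRSP arrays were.

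**Figure D2:**
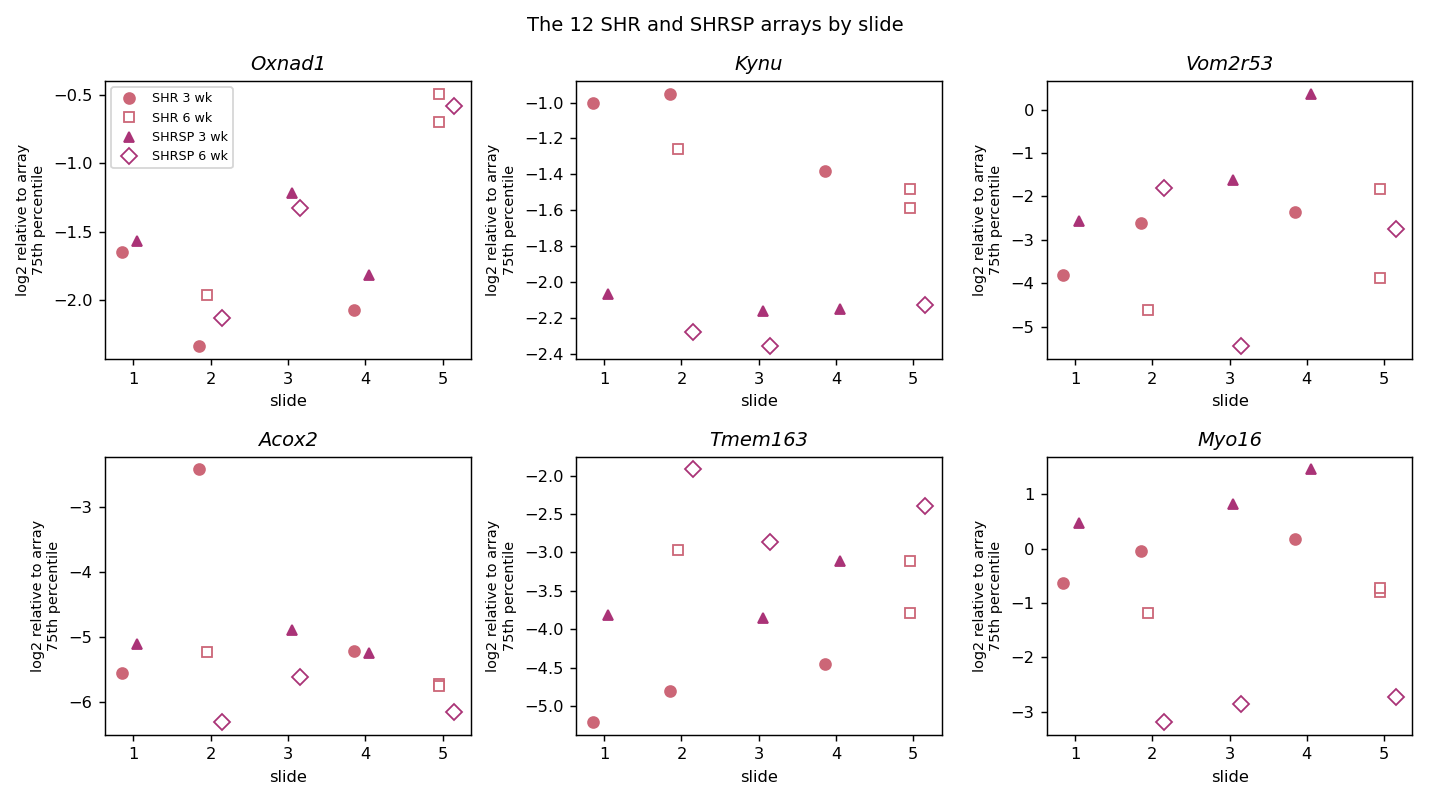
Log2 level relative to each array's 75th percentile for the 12 SHR and SHRSP arrays, by slide (1 to 5); each panel has its own axis range. Oxnad1 arrays of 1 slide sit together whatever the strain and age, while the Kynu points separate by strain on each slide that holds both strains.

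Kynu, the kynureninase gene, was near background in WKY, with signals of 10.8, 7.9 and 11.7 at 3 weeks and 15.1, 11.1 and 7.73 at 6 weeks, and WKY replicate 1 at 6 weeks was the single array well above background. In SHR the signals were 1193, 1094 and 895 at 3 weeks and 882, 756 and 781 at 6 weeks. In SHRSP they were 540, 539 and 476 at 3 weeks and 480, 438 and 594 at 6 weeks. The order was thus SHR, then SHRSP, then WKY at both ages, without overlap between any 2 strains of one age. At 3 weeks Kynu was at least 91.2-fold higher in SHR and at least 45.1-fold higher in SHRSP than in WKY. At 6 weeks, with 1 of 3 WKY arrays measured, it was 72.3-fold higher in SHR (log2 6.18 ± 0.21) and 41.1-fold higher in SHRSP (5.36 ± 0.21), folds that rest on 2 WKY arrays not well above background. With normexp the 4 fitted log2 differences were 3.83 and 2.93 at 3 weeks and 3.49 and 2.75 at 6 weeks. Those at 3 weeks lie below the bounds, which are 6.51 and 5.50 on that scale.

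Kynu was lower in SHRSP than in SHR, a comparison that did not choose the genes. The difference was -1.01 ± 0.21 at 3 weeks (95% interval -1.47 to -0.56, limma adjusted p = 0.00868, 2.02-fold) and -0.82 ± 0.21 at 6 weeks (-1.27 to -0.36, adjusted p = 0.0176, 1.76-fold). It was -1.07 and -0.77 within slides 1 and 4 at 3 weeks and -1.01 and -0.60 within slides 2 and 5 at 6 weeks. At 6 weeks the call was lost without SHR replicate 1 (adjusted p = 0.0594), SHRSP replicate 1 (0.0523) or SHRSP replicate 2 (0.0606). Age made no difference past the threshold in SHR (-0.33 ± 0.21, adjusted p = 0.247) or SHRSP (-0.13 ± 0.21, adjusted p = 0.701). Beside this, the summed level of 7 macrophage markers, in multiples of the array's 75th percentile, was 13.2 to 15.7 in WKY, 14.9 to 16.8 in SHR and 20.9 to 24.6 in SHRSP at 3 weeks. At 6 weeks it was 13.2 to 17.8 in WKY, 29.3 to 31.6 in SHR and 19.7 to 29.9 in SHRSP. Of the 7, 1 was called higher and 0 lower in SHRSP minus SHR at 3 weeks, and 0 and 0 at 6 weeks. Their part in the Kynu difference was not tested.

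The other enzymes of the kynurenine pathway and NAD synthesis gave calls of both signs in each comparison with WKY except SHR at 3 weeks, where all calls were higher. Of 23 listed genes, 17 were tested, and 4 were called higher and 0 lower in SHR against WKY at 3 weeks, 4 and 2 in SHRSP at 3 weeks, 5 and 3 in SHR at 6 weeks, and 3 and 2 in SHRSP at 6 weeks. Their median differences were 0.05, 0.10, 0.32 and -0.01, beside -0.01, 0.09, 0.09 and -0.01 over all probes. Kmo, which makes the substrate of kynureninase, was well above background on 1 of 18 arrays, Haao, the next enzyme after kynureninase, on 5 of 18, and Acmsd, which diverts the pathway from NAD, on 1 of 18, so none of these was tested. Afmid, the formamidase that forms kynurenine, was at -0.22 ± 0.13 and 0.26 ± 0.13 at 3 weeks in SHR and SHRSP, and was higher at 6 weeks by 0.62 ± 0.13 (adjusted p = 0.00233) and 0.84 ± 0.13 (adjusted p = 0.000229). Nampt, the salvage enzyme of NAD synthesis, was higher in SHR and SHRSP at 3 weeks by 1.1 ± 0.20 and 1.22 ± 0.20 (adjusted p = 0.00159 and 0.000503) and in SHR at 6 weeks by 0.60 ± 0.20 (0.0369), with SHRSP at -0.01 ± 0.20. Nmrk1, a nicotinamide riboside kinase, was higher by 1.02, 0.93 and 0.39 (each ± 0.11) in SHR and SHRSP at 3 weeks and SHR at 6 weeks and at -0.53 ± 0.11 in SHRSP at 6 weeks. Nnmt, which methylates nicotinamide, differed by -0.61 ± 0.09 in SHRSP at 3 weeks (adjusted p = 0.000146) and by -0.27 ± 0.09 in SHR at 6 weeks (0.026). Between SHRSP and SHR, 1 of 17 was higher and 1 lower at each age.

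Vom2r53 was at background in WKY and had the widest standard error of the 6 genes (0.92). Its WKY signals were 3.71, 1.76 and 2.6 at 3 weeks and 1.7, 2.78 and 2.89 at 6 weeks, none well above background. In SHR they were 169, 346 and 451 at 3 weeks and 86.3, 142 and 656 at 6 weeks. In SHRSP they were 382, 777 and 2731 at 3 weeks and 663, 51 and 391 at 6 weeks. SHRSP replicate 3 at 3 weeks was the highest array and SHRSP replicate 2 at 6 weeks the lowest of the 12, and the groups of SHR and SHRSP overlapped in every comparison. The gene was at least 26.2-fold higher in SHR and at least 82.6-fold in SHRSP at 3 weeks, and at least 20.1-fold and 21.7-fold at 6 weeks. With normexp the fitted log2 differences were 2.7, 4.18, 2.23 and 2.38, below the bounds of 4.71, 6.37, 4.33 and 4.44 on that scale.

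No tested difference of Vom2r53 passed the threshold. SHRSP minus SHR was 1.66 ± 0.92 at 3 weeks (95% interval -0.31 to 3.63, limma adjusted p = 0.326) and 0.11 ± 0.92 at 6 weeks (-1.86 to 2.08, adjusted p = 0.95). The 6-week value was 2.8 within slide 2 and 0.13 within slide 5. The age difference was -0.52 ± 0.92 in SHR (adjusted p = 0.692) and -2.06 ± 0.92 in SHRSP (-4.03 to -0.09, adjusted p = 0.111), the latter passing without SHRSP replicate 1 at 6 weeks (-2.82, adjusted p = 0.0463). Of 162 vomeronasal receptor names on the array, 55 passed the filter on dim probes. Among these 55, 1 was called higher and 0 lower in SHR at 3 weeks, 7 and 2 in SHRSP at 3 weeks, 5 and 5 in SHR at 6 weeks, and 2 and 4 in SHRSP at 6 weeks, with medians of 0.01, 0.29, 0.19 and -0.11. Vom2r46 was higher in SHR at 6 weeks by 1.22 ± 0.18 (adjusted p = 0.000226, 1 of 3 WKY arrays well above background) and Vom2r45 by 0.92 ± 0.16 (adjusted p = 0.000746). In the same comparison V1rc43, of the type 1 family, was at least 3.27-fold lower (adjusted p = 0.000974), with 0 of 3 SHR arrays well above background, and Vom2r72 was lower, at -0.99 ± 0.25 (adjusted p = 0.00819). Receptors of this family are similar in sequence, and whether their probes read one another's transcripts was not tested.

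Acox2 was at background in WKY and dim in the other strains. Its WKY signals were 4.41, 2.64 and 5.91 at 3 weeks and 2.34, 3.51 and 3.17 at 6 weeks, none well above background. In SHR they were 51, 395 and 62.5 at 3 weeks and 56.3, 39.6 and 43.2 at 6 weeks. In SHRSP they were 65.9, 81 and 55.4 at 3 weeks and 29.2, 45.8 and 36.3 at 6 weeks. SHR replicate 2 at 3 weeks stood far above the other 11 arrays, which spanned 29.2 to 81. On that array the summed level of 10 liver markers was 127 with all 10 well above background, whereas it was 1.61 to 6.69 on the other 17 arrays. The part of the liver markers in the Acox2 signal was not tested.

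Acox2 was at least 9.5-fold higher in SHR and at least 5.9-fold in SHRSP at 3 weeks, and at least 4.59-fold and 3.35-fold at 6 weeks. Without SHR replicate 2 at 3 weeks the first of these bounds was 4.79-fold. With normexp the 4 fitted log2 differences from WKY were 1.37, 0.85, 0.72 and 0.50. These lie below the bounds, which are 3.25, 2.56, 2.20 and 1.74 on that scale and hold for the processed signal only. SHRSP minus SHR was -0.69 ± 0.58 at 3 weeks (95% interval -1.94 to 0.56, limma adjusted p = 0.542), 0.30 without SHR replicate 2, and 0.44 and -0.03 within slides 1 and 4. At 6 weeks it was -0.46 ± 0.58 (-1.71 to 0.79, adjusted p = 0.631). In SHRSP the arrays at 6 weeks all lay below those at 3 weeks, by -0.95 ± 0.58 (adjusted p = 0.253), and the adjusted p was 0.0164 for the same difference with SHR replicate 2 at 3 weeks left out. In SHR the age difference was -1.18 ± 0.58 (adjusted p = 0.141), -0.19 without that array, -2.81 within slide 2, which holds it, and -1.76 without SHR replicate 1 at 3 weeks (adjusted p = 0.0401).

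Other peroxisomal genes of fatty acid and bile acid oxidation gave calls of both signs. All 33 on the array were tested, and 4 were called higher and 5 lower in SHR at 3 weeks, 5 and 8 in SHRSP at 3 weeks, 4 and 7 in SHR at 6 weeks, and 3 and 12 in SHRSP at 6 weeks, with medians of 0.08, 0.10, -0.10 and -0.24. Acox3, another branched-chain oxidase, was lower in SHRSP at 6 weeks, at -0.54 ± 0.16 (adjusted p = 0.0221), and 0.46 ± 0.18, 0.41 ± 0.18 and -0.37 ± 0.16 elsewhere did not pass. Amacr, the racemase that prepares branched substrates for these oxidases, was lower in SHRSP at 3 weeks, at -0.56 ± 0.13 and in SHR at 6 weeks at -0.57 ± 0.13 (adjusted p = 0.00651 and 0.00569). Crot, the carnitine octanoyltransferase, differed by -0.57, -0.72, -0.86 and -1.27 (each ± 0.10) and Pipox, a sarcosine oxidase, by -0.40, -0.85, -0.51 and -1.65 (each ± 0.12), all past the threshold. Ehhadh, the bifunctional enzyme that follows the oxidases, was higher at 3 weeks by 1.04 ± 0.26 in SHR and 2.26 ± 0.26 in SHRSP (adjusted p = 0.011 and 2.58e-05) and was at 0.02 and 0.01 at 6 weeks.

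Tmem163, the zinc transporter gene, stood lowest in WKY and highest in SHRSP, and rose with age in SHR and SHRSP. Its WKY signals were 13.2, 16.2 and 17.4 at 3 weeks, the first of them not well above background, and 20.8, 15.6 and 21.9 at 6 weeks. In SHR they were 64.3, 75.3 and 106 at 3 weeks and 269, 152 and 271 at 6 weeks. In SHRSP they were 162, 167 and 245 at 3 weeks and 616, 311 and 492 at 6 weeks. No 2 strains of one age overlapped, and in SHR and SHRSP the arrays at 6 weeks all lay above those at 3 weeks. The differences from WKY were 2.37 in SHR and 3.61 in SHRSP at 3 weeks (5.16-fold and 12.2-fold), and 3.51 and 4.41 at 6 weeks (11.4-fold and 21.2-fold), each ± 0.28. With normexp they were 0.87, 1.7, 1.8 and 2.55.

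The difference between SHRSP and SHR in Tmem163 was 1.24 ± 0.28 at 3 weeks (95% interval 0.63 to 1.85, limma adjusted p = 0.016) and 0.90 ± 0.28 at 6 weeks (0.29 to 1.51, adjusted p = 0.0479), with 1.41 and 1.34 within slides at 3 weeks and 1.06 and 1.05 at 6 weeks. The 3-week call was lost without SHR replicate 1 (adjusted p = 0.0687), SHR replicate 2 (0.0532) or SHRSP replicate 3 (0.0772) of that age. The 6-week call lay at the threshold, and without 12 of the 18 arrays in turn its adjusted p was 0.0547 to 0.197. It held only without SHR replicate 1 or 3 or SHRSP replicate 3 at 3 weeks, or WKY replicate 2, SHR replicate 1 or SHRSP replicate 2 at 6 weeks. With age Tmem163 rose by 1.53 ± 0.28 in SHR (2.89-fold, adjusted p = 0.00128) and by 1.20 ± 0.28 in SHRSP (2.29-fold, adjusted p = 0.00612), and by 1.84 and 0.99 within the slides that held both ages. In WKY the age difference was 0.39 ± 0.28 (-0.22 to 1.01, adjusted p = 0.424). The age changes of SHRSP and SHR did not differ past the threshold (95% interval -1.2 to 0.52, adjusted p = 0.596), and their difference from WKY was not tested.

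Of 28 listed transporters and metallothioneins, 24 were tested, and 3 were called higher and 1 lower in SHR at 3 weeks, 6 and 0 in SHRSP at 3 weeks, 7 and 1 in SHR at 6 weeks, and 1 and 1 in SHRSP at 6 weeks, with medians of -0.04, -0.02, 0.10 and 0.09. With age, 9 were higher and 3 lower in SHR, 7 and 4 in SHRSP and 4 and 2 in WKY. Over all probes, 28.7%, 28.7% and 12.2% were called with age in either direction. Slc30a5, a transporter of the secretory pathway, was higher by 0.25, 0.37, 0.32 and 0.33 (each ± 0.06), all past the threshold. Slc39a4, the uptake transporter of the gut, was higher at 3 weeks by 0.86 ± 0.16 in SHR and 0.50 ± 0.16 in SHRSP (adjusted p = 0.00188 and 0.0357). Slc30a6 was lower in SHR at 3 weeks, at -0.51 ± 0.11 (adjusted p = 0.0058), and Mtf1, the zinc-sensing transcription factor, higher in SHR at 6 weeks by 0.30 ± 0.07 (adjusted p = 0.0054). Slc30a1, the zinc exporter of the cell surface, was between -0.28 and 0.13 (each ± 0.10) and did not pass in any of the 4 comparisons.

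Myo16 was well above background on all 18 arrays, and fell with age in SHRSP and WKY. In WKY its signals were 365, 191 and 323 at 3 weeks and 21.3, 158 and 45 at 6 weeks. In SHR they were 1548, 2049 and 2618 at 3 weeks and 924, 1209 and 1414 at 6 weeks. In SHRSP they were 3130, 4285 and 5807 at 3 weeks and 255, 313 and 392 at 6 weeks. At 3 weeks all SHRSP arrays lay above all SHR arrays, and at 6 weeks all lay below them. The differences from WKY were 2.84 in SHR and 3.93 in SHRSP at 3 weeks (7.16-fold and 15.2-fold) and 4.42 and 2.41 at 6 weeks (21.5-fold and 5.31-fold), each ± 0.52. WKY itself held a 7.42-fold range at 6 weeks, from replicate 1 to replicate 2, and the differences at 6 weeks were 2.97 in SHR and 1.01 in SHRSP within slide 5, which holds WKY replicate 2. With normexp the differences over all arrays were 3.3 and 1.47 at 6 weeks.

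Myo16 fell with age by 3.84 ± 0.52 on the log2 scale in SHRSP (95% interval -4.96 to -2.72, limma adjusted p = 0.000101, 14.3-fold) and by 2.32 ± 0.52 in WKY (-3.45 to -1.20, adjusted p = 0.0105, 5.01-fold). In SHR the difference was -0.74 ± 0.52 (-1.86 to 0.38, adjusted p = 0.297), although its groups did not overlap. The age change in SHRSP differed from that in SHR by -3.10 ± 0.74 (-4.69 to -1.51, adjusted p = 0.0149), and the adjusted p was 0.000689 to 0.0436 with each array left out in turn. Within slides the age difference was -3.68 in SHRSP, -1.15 in SHR, and -3.96 and -2.79 in WKY. Of 8 fat markers, 5 were called lower with age in SHR, 3 in SHRSP and 0 in WKY, and 0 higher. Over all probes, 28.7%, 28.7% and 12.2% were called with age in either direction. The summed level of the fat markers was 44.4 to 96.6 at 3 weeks and 6.78 to 23.3 at 6 weeks in SHR. It was 38.8 to 70.9 and 18 to 29.3 in SHRSP, and 27.6 to 55.3 and 27.5 to 71 in WKY. Their part in the age changes of Myo16 and Tmem163 was not tested. The WKY call was lost with only the 6 WKY arrays in the fit (adjusted p = 0.126).

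SHRSP minus SHR was 1.09 ± 0.52 at 3 weeks (-0.04 to 2.21, limma adjusted p = 0.251) and -2.01 ± 0.52 at 6 weeks (-3.14 to -0.89, adjusted p = 0.0183, 4.04-fold). Within slides the values were 1.09 and 1.29 at 3 weeks and -1.99 and -1.96 at 6 weeks. The 6-week call was lost without SHR replicate 2 (adjusted p = 0.0545), SHR replicate 3 (0.0621) or SHRSP replicate 1 (0.0665) of that age. Medulla and cortex markers stood beside the strain differences. The summed level of 8 medulla markers was 89.5 to 96.6 in WKY, 113 to 117 in SHR and 135 to 152 in SHRSP at 3 weeks. At 6 weeks it was 73.5 to 80.5, 123 to 145 and 118 to 146. All 8 were well above background on every array, as were the 10 cortex markers. Of the 8, 3 were called higher and 1 lower in SHR against WKY at 3 weeks, 6 and 1 in SHRSP at 3 weeks, 6 and 1 in SHR at 6 weeks, and 5 and 0 in SHRSP at 6 weeks, and the lower one was Ddc. The medulla sums stood in the order WKY, SHR, SHRSP at 3 weeks, as Myo16 and Tmem163 did. Those of SHR and SHRSP overlapped at 6 weeks. The summed level of the 10 cortex markers stood in the same order at 3 weeks, without overlap. At 6 weeks the cortex sums were highest in SHR, and those of SHRSP and WKY overlapped. Of the 10, 3 were called higher in SHR against WKY at 3 weeks and 5 in SHRSP. At 6 weeks 5 were higher in SHR and 5 in SHRSP, and 0 were lower at either age. The part of the medulla and cortex markers in the differences of Myo16 and Tmem163 was not tested.

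Among 17 other unconventional myosins tested, of 23 listed, 5 were called higher and 2 lower in SHR at 3 weeks, 6 and 5 in SHRSP at 3 weeks, 3 and 3 in SHR at 6 weeks, and 3 and 1 in SHRSP at 6 weeks, with medians of 0.16, -0.15, 0.15 and -0.04. With age, 1 was higher and 1 lower in SHRSP and in WKY, and 1 was higher and 4 lower in SHR. Over all probes, 28.7% were called with age in SHRSP, 12.2% in WKY and 28.7% in SHR, in either direction. Myo10, the myosin of filopodia, was higher in all 4 comparisons with WKY, by 0.64, 1.27, 0.98 and 1.14 (each ± 0.18, adjusted p = 0.0253, 0.000187, 0.00121 and 0.000396). Myo1g and Myo1f are known from blood cells. Myo1g was lower, at -0.59, -1.20 and -0.92 (each ± 0.18) and Myo1f by -0.41, -0.56 and -0.41 (each ± 0.10) in SHR and SHRSP at 3 weeks and SHR at 6 weeks. Myo3a, known from photoreceptors and hair cells, was at least 2.33-fold lower in SHRSP than in WKY at 6 weeks (adjusted p = 0.000469), where 0 of 3 SHRSP arrays were well above background.

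Over the 6 genes, SHRSP differed from SHR in 2 at 3 weeks (Kynu and Tmem163), where 7.55% of all probes were called, and in 3 at 6 weeks (Kynu, Tmem163 and Myo16), where 14.8% were. With age, 1 of 6 was called in SHR (28.7% of all probes), 2 of 6 in SHRSP (28.7%) and 1 of the 2 measured in WKY (12.2%). The age change differed between SHRSP and SHR in 1 of 6 (11.6% of all probes). These are few genes, and the counts moved by 1 to 3 with a single array left out.

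**Figure D3:**
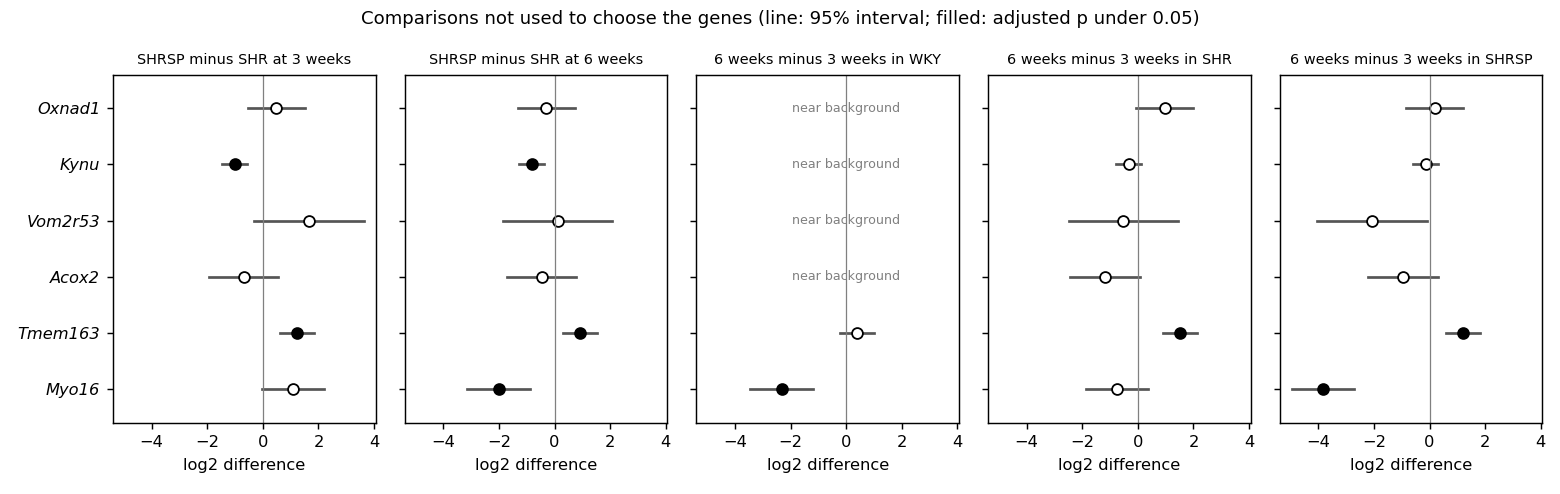
Log2 differences of the 6 genes in the comparisons that did not choose them, with 95% intervals; filled points had a limma adjusted p under 0.05, and genes near background in both WKY groups have no point. Kynu lies below 0 and Tmem163 above 0 in SHRSP minus SHR at both ages, and Myo16 lies below 0 at 6 weeks and furthest below 0 for age in SHRSP.

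The chromosomal neighbours of the 6 genes were compared over the 140 gene names with a tested probe within 1 Mb of a member's probe on rn4. Many of these names are only identifiers of a probe or transcript. In the 4 comparisons with WKY, 25.7%, 30%, 30% and 21.4% of them were called in either direction (SHR and SHRSP at 3 weeks, then at 6 weeks), near the shares over all probes given above. Since these comparisons share WKY arrays, each value is given for the genes called the same way in all 4. These were 5 higher (3.57%, against 3.05% of all probes) and 2 lower (1.43%, against 2.77%). The count of 7 was 14 with slide as a block and 3 with only the compared arrays in each fit.

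Near Oxnad1, 3 of 30 neighbours were among them, all within 0.5 Mb. Parg, which removes poly(ADP-ribose) chains, lay 221 kb after the probe and was higher by 1.95 and 2.32 in SHR and SHRSP at 3 weeks and 1.92 and 1.40 at 6 weeks (each ± 0.32, adjusted p = 0.00067, 0.000123, 0.000459 and 0.00482). Ncoa4, the receptor for ferritin breakdown, lay 85.9 kb after it and was higher by 1.36, 1.54, 1.52 and 0.73 (each ± 0.17). Btd, the biotinidase gene, lay 433 kb before it and was higher by 0.53, 0.42, 0.47 and 0.42 (each ± 0.10). All 3 were far smaller differences than that of Oxnad1.

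Near Tmem163, 2 of 17 neighbours were called lower in all 4, both over 0.8 Mb away. Ubxn4, an endoplasmic reticulum protein of protein degradation, was at -0.61, -0.69, -0.58 and -0.66 (each ± 0.08), and Dars, the aspartyl-tRNA synthetase, at -0.48, -0.84, -0.53 and -0.48 (each ± 0.13). Near Myo16, 1 of 8 was called, Col4a2, a basement membrane collagen 913 kb before the probe, at 0.87, 0.88, 0.74 and 0.83 (each ± 0.14). Near Vom2r53, 1 of 69 was called, which the files name only by an identifier. None of the 14 neighbours of Acox2 and neither of the 2 of Kynu, Arhgap15 and Gtdc1, was called in all 4.

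**Figure D4:**
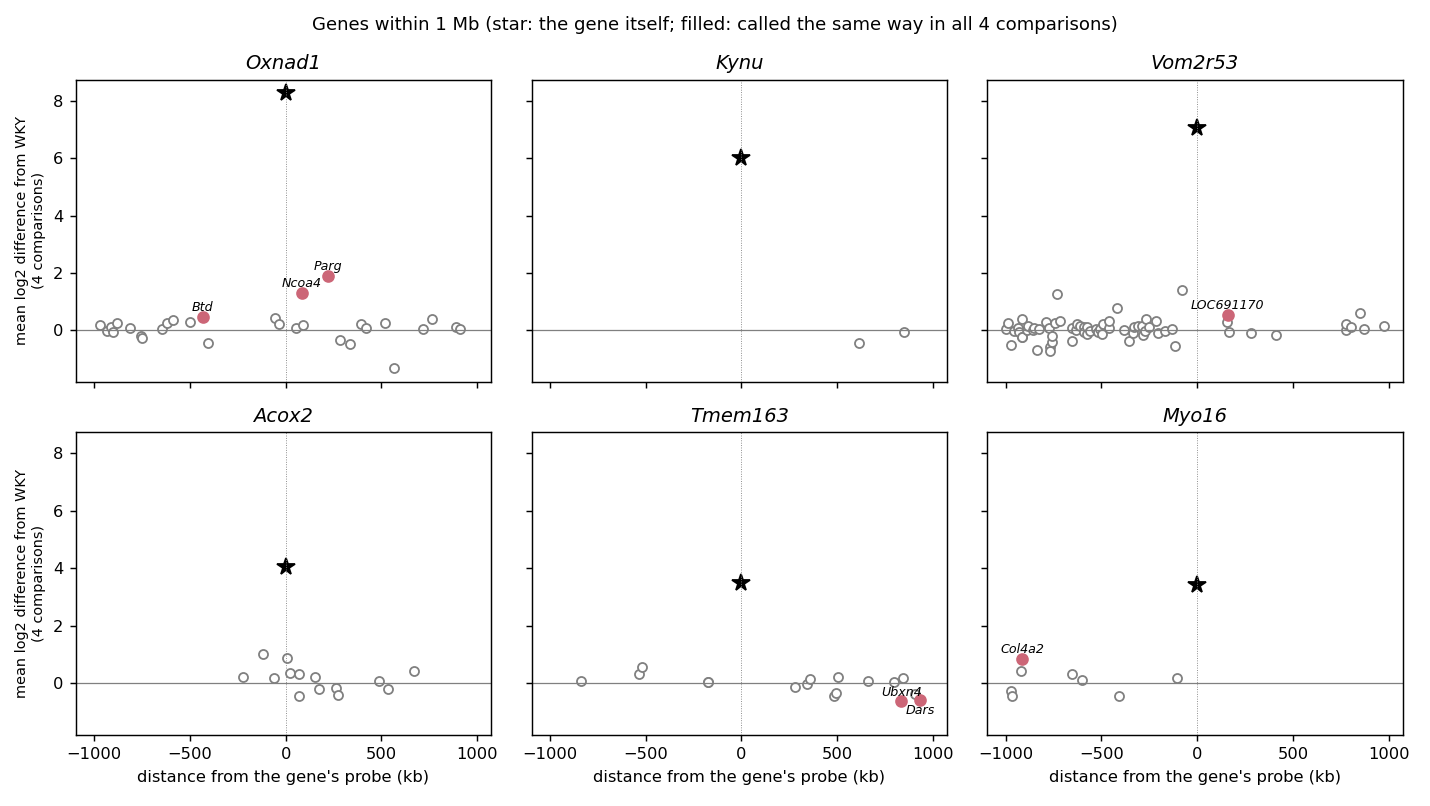
Mean of the 4 log2 differences from WKY for each tested gene within 1 Mb, against its distance from the member's probe in kb; stars are the 6 genes (fitted values; those of Oxnad1, Kynu, Vom2r53 and Acox2 rest on WKY signals at or near background), and filled points were called the same way in all 4 comparisons. The stars stand above every neighbour, and only Parg and Ncoa4, beside Oxnad1, are filled points above 1.

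The genes most like the 6 in their pattern over 6 group means, by root mean square distance of centred log2 means among 12987 genes with a symbol, differed between members. Gpr35, a G protein-coupled receptor, was among the 2 nearest to Acox2 (0.63), Kynu (1.40), Vom2r53 (1.93) and Oxnad1 (2.43). The WKY means of these 4 members rest on signals at or near background. Tmem163 was nearest to Gucy2f, a guanylate cyclase of photoreceptors (0.61), and Shc3, a neuronal adaptor protein (0.68). Myo16 was nearest to Dkk1, a Wnt inhibitor (1.02), and Slco1c1, a thyroid hormone transporter (1.08). Dkk1 was well above background on 0 of 6 WKY arrays.

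The list set beside Oxnad1 held flavin reductases together with cytochrome b5 genes such as Cyb5b. It was not restricted to the domain family of Oxnad1. It gave 2 higher and 1 lower of 16 tested in SHR at 3 weeks, and 3 and 3 in SHRSP at 3 weeks. At 6 weeks the counts were 5 and 3 in SHR and 2 and 1 in SHRSP. The medians were -0.12, -0.06, 0.14 and -0.09 in the same order. Por, the electron donor of microsomal P450 enzymes, was higher by 0.77 ± 0.14 in SHRSP at 3 weeks and by 0.80 ± 0.14 and 1.12 ± 0.14 in SHR and SHRSP at 6 weeks (adjusted p = 0.000786, 0.000593 and 3.31e-05). Cyb5r3, the NADH-cytochrome b5 reductase, was higher at 6 weeks by 0.66 ± 0.10 in SHR and 0.84 ± 0.10 in SHRSP (adjusted p = 0.000342 and 3.97e-05). Nqo2, a quinone reductase, was higher in SHR by 0.48 ± 0.10 at 3 weeks and 0.61 ± 0.10 at 6 weeks. Cyb5b, the cytochrome b5 of the outer mitochondrial membrane, was lower, at -0.65, -0.56, -0.54 and -0.69 (each ± 0.12), all past the threshold.

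On each array 77.8% to 84.8% of spots were well above background and 0 were saturated, and the 75th percentile lay between 2092 and 2602. Precision is limited by having 3 arrays in a group.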

How the data were processed

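Total RNA of 18 adrenal samples was labelled from 200 ng with an oligo-dT primer, per the labels' protocols. The deposited values are processed signal intensity on a linear scale, read with Agilent Feature Extraction 10.5.1.1 per the file headers. The authors' deposited series table held identical intensities. Control and outlier-marked spots were left out, spots of a probe were averaged as log2, and each array's 75th percentile was subtracted. A probe was tested if 1 or more of the 6 groups had it well above background on each of its 3 arrays (23761 of 30367 probes). One model of 6 group means was fitted with limma 3.58.1 in R 4.3.3 (lmFit, eBayes; 12 residual and 2.16 prior degrees of freedom), with Benjamini-Hochberg adjustment over all tested probes and a threshold of 0.05. The script was tested on simulated data. A gene outside the 6 was its probe with the highest mean.

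The members, lists and comparisons were chosen with earlier results of these data known. All 6 members were named, whatever their result, with up to 4 genes per list by smallest adjusted p over the 4 comparisons with WKY, plus genes of interest (among them Kmo, Haao, Afmid, Acmsd, Acox3, Amacr, Slc30a1 and Myo10), neighbours within 1 Mb called in all 4, and the 2 most like genes per member. A few genes taken by these rules are not reported here. Arrays lay on 5 slides scanned on 3 days, and no slide held all groups. Alternatives were other normalizations, background correction and filters, slide or replicate blocks, single left-out arrays and other windows. Gene symbols were updated through RefSeq for 17328 probes. No probe's transcript region was analysed here.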

Additional observations from a re-analysis of the deposited data

Results flagged for a closer look

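The change of Myo16 between 3 and 6 weeks differed between SHRSP and SHR by -3.10 on the log2 scale (± 0.74 SE, limma adjusted p = 0.0149, n = 3 arrays per group). It drew attention because the interaction itself was tested and passed, with a change of -3.84 in SHRSP and -0.74 in SHR. No array of a Myo16 group was tested for standing apart from the rest, since each group held 3.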

How the results depend on the processing

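With the replicate number as a block, none of the 56 member values and 19 counts moved. The tested values among them kept their calls, and the count of members called in SHRSP minus SHR stayed at 2 at 3 weeks and 3 at 6 weeks. Same-numbered arrays correlated between -0.51 and 0.576, so the numbers were not taken to pair samples. No value of a called difference changed sign under any alternative run. With only the arrays of the groups compared in the fit, the count of members called was 1 in SHRSP minus SHR at 3 weeks and 0 for age in WKY, and neighbours called in all 4 fell to 3 from 7. With slide as a block that neighbour count was 14, with a window of 0.5 Mb it was 4 and with 2 Mb it was 14. With 1 array left out the count of members ranged from 1 to 2 in SHRSP minus SHR at 3 weeks, from 0 to 3 at 6 weeks and from 1 to 2 for age in SHR. The count for age in SHRSP rose from 2 in 2 of these runs. Acox2 passed without SHR replicate 2 at 3 weeks (limma adjusted p = 0.0164) and Vom2r53 without SHRSP replicate 1 at 6 weeks (0.0463). Normexp background correction moved 22 of the 24 differences from WKY, all of them smaller, and the causes of the other changes were not tested. The call of Tmem163 at 6 weeks was also lost with quantile normalization (adjusted p = 0.0587) and with no filter (0.0696). Signal over background limits the folds of Oxnad1, Vom2r53 and Acox2 over WKY, and of Kynu at 3 weeks, to bounds. The normexp differences all lay below these bounds, which hold for the processed signal only.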
